A study of Mus musculus with 2 samples.

Results

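The genes described here are those of the 26S proteasome, with the ubiquitin gene Ubb and the ubiquitin hydrolase gene Uchl1, in single-nucleus RNA sequencing of the mouse hippocampus. They were taken by name: 7 genes of the alpha ring (Psma1 to Psma7) and 7 of the beta ring (Psmb1 to Psmb7) of the 20S core, 6 ATPases of the 19S base (Psmc1 to Psmc6), 11 further 19S subunits (Psmd1, Psmd2, Psmd3, Psmd4, Psmd6, Psmd7, Psmd8, Psmd11, Psmd12, Psmd13 and Psmd14), Ubb and Uchl1. All 33 were present among the 32285 genes of the count tables, so the set holds 31 proteasome subunits. The first library (AAV-TAU) came from C57BL/6J mice that received an adeno-associated virus that expresses wild-type human tau at full length (2N4R). The second (AAV-STOP) came from C57BL/6J mice that received the same kind of virus with a human MAPT transcript in which an early stop codon prevents translation. Both groups were injected into the cerebral ventricles of both sides on postnatal day 0 and examined at 6 weeks. Hippocampi of 3 mice were pooled into 1 library per group, and the promoter that drives the transgene is not given in the sources used here.

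Proteins marked for breakdown carry chains of ubiquitin, which E1, E2 and E3 enzymes attach in sequence. The 19S cap of the 26S proteasome binds the chain, removes it and uses its ATPases to thread the unfolded protein into the 20S barrel, whose inner beta subunits cut it. Neurons depend on the pathway for protein turnover at synapses, and misfolded tau is among its known substrates.

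AAV-TAU had 19596 barcodes with 109428807 UMIs (counted transcript molecules) in all, and AAV-STOP had 20265 barcodes with 130252240 UMIs. After doublets were left out, 17296 AAV-TAU and 17604 AAV-STOP nuclei remained, with medians of 4952.5 and 5585 UMIs. The smallest barcode held 1633 UMIs in AAV-TAU and 1973 in AAV-STOP, and the median mitochondrial share of a nucleus was 0.280% in AAV-TAU and 0.172% in AAV-STOP. The libraries shared 116 barcode sequences. The gene list held no human MAPT, so the transgene could not be followed. Nuclei were clustered and the clusters named from marker genes; the ending "like" in a class name says that it rests on markers. Levels are in CPM, counts per 1000000 of the class total. The 7 main classes were dentate granule-like, CA1-like, CA3-like and inhibitory-like neurons, and the glial classes of oligodendrocyte-like, of astrocyte-like and of microglia-like nuclei. Granule neuron markers summed to 1526 CPM in AAV-TAU and 1519 CPM in AAV-STOP in granule-like neurons, against 159 and 173 CPM in the other nuclei.

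With 1 library in each group there is no test, and no spread between mice is known. Differences between the libraries are given as ratios with exact 95% intervals, which cover counting error only. A log2 ratio of a gene sets its CPM in AAV-TAU over that in AAV-STOP after 5 CPM were added to both, which understates the difference of low genes. A gene was measured in a class at a mean of 10 CPM or more and 100 UMIs or more over both libraries, and it was past the fold where its log2 ratio reached 0.322 in either direction.

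In granule-like neurons (4194 AAV-TAU and 5223 AAV-STOP nuclei), Ubb, Uchl1 and nearly all proteasome subunits were higher in AAV-TAU. Ubb had the highest ratio, Psmd8 of the 19S cap and the catalytic Psmb5 had the highest among the subunits, and Psmd14 was the one member that was lower. All 33 members were measured, 32 had a log2 ratio above 0, as did 70.2% of all measured genes, and 14 were higher past the fold, against 4.62% of the 9122 genes measured in the class. No member was lower past the fold, against 0.0987% of all measured genes. The median log2 ratio of the members was 0.27, against 0.06 over all measured genes. With scaling by the median of ratios in place of the class total, 28 of 33 were above 0 and 9 were past the fold, against 2.53% of all measured genes. This scaling takes the median of all genes as no difference, so the 70.2% does not apply to its count above 0. The ratio's interval lay above 1 for 26 members and below 1 for 1, while it lay above 1 for 31.5% and below 1 for 9.27% of all measured genes.

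**Figure D1:**
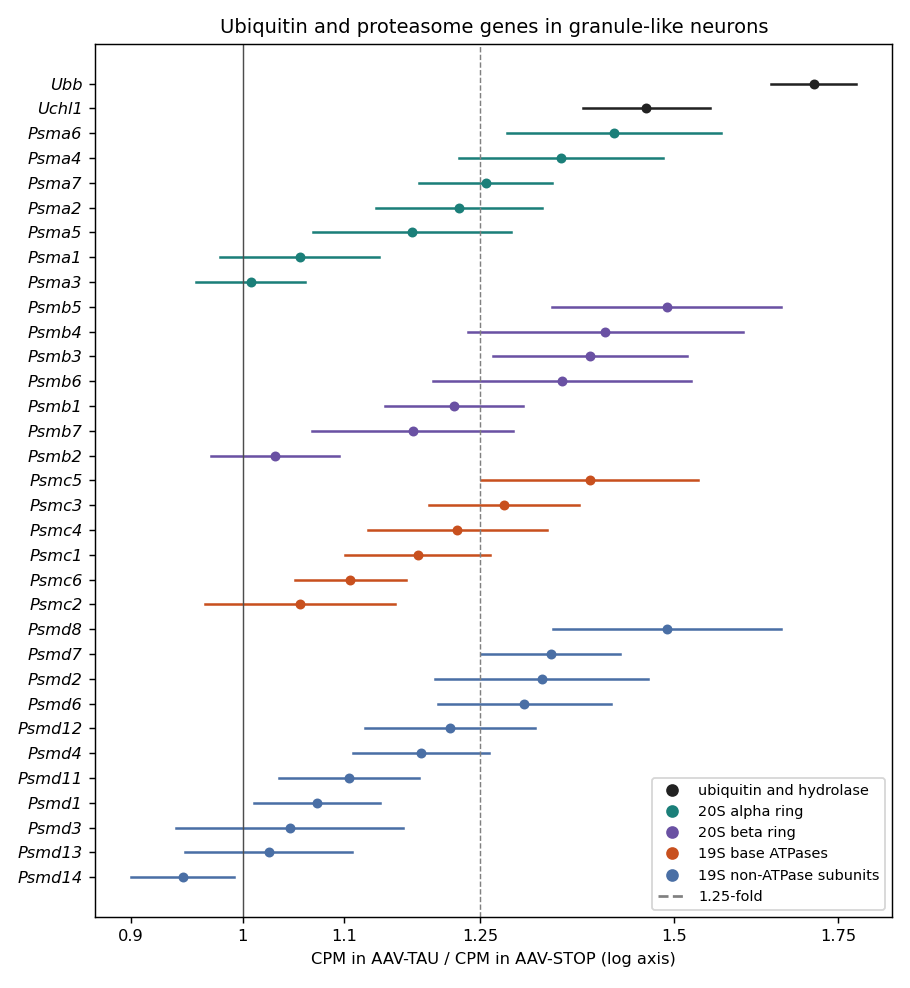
Ratio of CPM in AAV-TAU to CPM in AAV-STOP (log axis) for the 33 members in granule-like neurons, grouped by subunit type, with exact 95% intervals as bars. Ubb lies at 1.71, Psmd14 at 0.945, and 26 intervals lie above 1.

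Ubb encodes a chain of ubiquitin repeats that is cut into single ubiquitin molecules. Its level in granule-like neurons was 248 CPM in AAV-TAU (exact Poisson interval 242 to 255) and 145 CPM in AAV-STOP (141 to 150), a ratio of 1.71 (1.64 to 1.78). It is annotated in GRCm38 (mm10) on chromosome 11 from 62551171 to 62553213, plus strand, a span of 2.04 kb. Uchl1, a hydrolase that releases ubiquitin and is abundant in neurons, stood at 102 CPM in AAV-TAU and 70.0 CPM in AAV-STOP, a ratio of 1.46 (1.38 to 1.55), and lies on chromosome 5 from 66676091 to 66687234, plus strand. With each nucleus thinned to 2000 UMIs, Ubb was seen in 39.9% of AAV-TAU nuclei (exact binomial interval 38.4 to 41.4) and 26.3% of AAV-STOP nuclei (25.1 to 27.6). Without thinning the shares were 70.9% and 53.2%. Thinning left out 17 AAV-TAU and 6 AAV-STOP nuclei.

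The alpha ring forms the outer rings of the core and gates its entrance. Its summed level was 423 CPM in AAV-TAU and 365 CPM in AAV-STOP, a ratio of 1.16 (1.13 to 1.19), and all 7 genes had a log2 ratio above 0, with 2 past the fold. Psma6 was the highest of them, at 35.8 CPM in AAV-TAU and 25.2 CPM in AAV-STOP, a log2 ratio of 0.43. Psma3 was the lowest, at 114.1 and 113.3 CPM, and its interval of 0.957 to 1.06 included 1. Psma4 was also past the fold, at 38.3 CPM in AAV-TAU and 28.4 CPM in AAV-STOP.

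The beta ring carries the proteolytic sites, in Psmb5, Psmb6 and Psmb7. It summed to 321 CPM in AAV-TAU and 264 CPM in AAV-STOP, a ratio of 1.22 (1.18 to 1.26), and 4 of its 7 genes were past the fold. Psmb5, the chymotrypsin-like subunit, stood at 32.2 CPM in AAV-TAU and 21.6 CPM in AAV-STOP, a log2 ratio of 0.48, and lies on chromosome 14 from 54614119 to 54618022, minus strand. Psmb6, the caspase-like subunit, stood at 24.2 and 17.9 CPM, a log2 ratio of 0.35. Psmb7, the trypsin-like subunit, stood at 36.6 and 31.2 CPM, and its log2 ratio of 0.20 did not reach the fold. The catalytic subunits therefore all lay above 0, with log2 ratios from 0.20 to 0.48, and the differences among them were not tested. Psmb2 was the lowest of the ring, at 84.2 CPM in AAV-TAU and 81.7 CPM in AAV-STOP, with an interval of 0.970 to 1.095 that included 1.

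The ATPases of the base unfold the substrate. They summed to 377 CPM in AAV-TAU and 320 CPM in AAV-STOP, a ratio of 1.18 (1.14 to 1.21), and 2 of 6 were past the fold. Psmc5 was the highest, at 34.3 CPM in AAV-TAU and 24.8 CPM in AAV-STOP, a log2 ratio of 0.40. Psmc3 was the other one past the fold, at 68.3 and 53.4 CPM, and it overlaps Slc39a13 on the opposite strand by 4579 bases. Psmc2 was the lowest, at 39.3 CPM in AAV-TAU and 37.2 CPM in AAV-STOP, a log2 ratio of 0.07.

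The other 19S subunits form the lid and scaffold and include the ubiquitin receptor Psmd4 and the deubiquitinase Psmd14. They summed to 700.5 CPM in AAV-TAU and 619 CPM in AAV-STOP, a ratio of 1.13 (1.11 to 1.16), and 4 of 11 were past the fold. Psmd8, a lid subunit, was the highest, at 32.5 CPM in AAV-TAU and 21.8 CPM in AAV-STOP, a log2 ratio of 0.48. Psmd4 stood at 80.1 and 67.7 CPM, a log2 ratio of 0.23. Psmd14, which removes the ubiquitin chain, stood at 128 CPM in AAV-TAU and 135 CPM in AAV-STOP, a ratio of 0.945 (0.9005 to 0.991), the one member whose interval lay below 1. Psmd8 lies on chromosome 7 from 29174188 to 29180701, minus strand, and Psmd14 on chromosome 2 from 61711694 to 61800376, plus strand. Subunits of the same complex thus ran from a ratio of 0.945 to one of 1.49.

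Promoter windows were read for the members that the comparison turns on: Ubb and the catalytic Psmb5 and Psmb6 among the higher ones, Psmc6 as a subunit that holds both motifs named next, and Psmd14 as the lowest. A window runs from 250 bases before to 50 after the most upstream annotated start and comes from RefSeq on GRCm38.p6. Of the 33 members, 27 were matched in that table. Capitals mark matches, on either strand, to TGACNNNGC (the core of the antioxidant response element, through which the factor encoded by Nfe2l1 is known to raise proteasome genes), CCGGAAG (a site of ETS factors) or CCAAT (a site of NF-Y).
Ubb, chr11:62550921-62551220, plus strand: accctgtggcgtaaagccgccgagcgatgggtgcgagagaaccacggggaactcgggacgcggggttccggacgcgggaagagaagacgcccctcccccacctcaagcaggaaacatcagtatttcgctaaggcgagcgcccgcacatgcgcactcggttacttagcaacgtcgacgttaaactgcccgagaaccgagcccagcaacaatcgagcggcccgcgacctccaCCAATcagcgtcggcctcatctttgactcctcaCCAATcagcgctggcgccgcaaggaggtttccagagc
Psmb5, chr14:54617946-54618245, minus strand: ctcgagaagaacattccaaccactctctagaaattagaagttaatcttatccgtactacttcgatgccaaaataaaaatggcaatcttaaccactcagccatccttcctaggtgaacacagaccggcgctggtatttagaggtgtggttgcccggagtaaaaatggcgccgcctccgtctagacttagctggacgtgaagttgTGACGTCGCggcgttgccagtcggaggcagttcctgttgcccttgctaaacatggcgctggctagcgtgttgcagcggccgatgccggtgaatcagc
Psmb6, chr11:70525107-70525406, plus strand: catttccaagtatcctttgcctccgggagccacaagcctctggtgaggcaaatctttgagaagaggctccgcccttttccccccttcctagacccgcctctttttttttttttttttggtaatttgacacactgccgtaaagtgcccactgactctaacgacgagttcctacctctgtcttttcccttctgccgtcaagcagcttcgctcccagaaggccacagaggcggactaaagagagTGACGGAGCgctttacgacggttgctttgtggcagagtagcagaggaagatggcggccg
Psmc6, chr14:45329574-45329873, plus strand: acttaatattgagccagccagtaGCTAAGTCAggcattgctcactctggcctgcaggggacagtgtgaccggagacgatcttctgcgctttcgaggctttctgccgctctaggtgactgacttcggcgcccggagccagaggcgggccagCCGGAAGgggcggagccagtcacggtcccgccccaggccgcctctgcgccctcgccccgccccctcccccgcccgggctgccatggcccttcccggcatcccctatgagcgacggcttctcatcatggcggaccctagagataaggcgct
Psmd14, chr2:61711444-61711743, plus strand: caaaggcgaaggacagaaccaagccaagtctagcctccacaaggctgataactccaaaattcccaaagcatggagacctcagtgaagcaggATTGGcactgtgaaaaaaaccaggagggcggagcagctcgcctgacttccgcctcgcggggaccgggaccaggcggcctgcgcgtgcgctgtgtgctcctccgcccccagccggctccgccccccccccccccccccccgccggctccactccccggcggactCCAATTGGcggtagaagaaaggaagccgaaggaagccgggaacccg
The windows of Psmb5 and Psmb6 hold 1 match to TGACNNNGC each, and that of Psmc6 holds 1 to TGACNNNGC and 1 to CCGGAAG. That of Ubb holds 2 to CCAAT and that of Psmd14 holds 3 to CCAAT, of which the last 2 overlap, 1 on each strand. Matches to different motifs did not overlap.

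The CCGGAAG letters were present in 9 of the 25 subunits with a window, that is 33.3% of the 27 members, against 9.14% of the 27025 genes in the table. TGACNNNGC was in 14.8% of the members (Psmb5, Psmb6, Psmc6 and Psmd12) and 12.4% of all genes. CCAAT was in 40.7% of the members and 38.0% of all genes, and the GC box GGGCGG in 55.6% and 35.9%. The paired heat shock element letters GAANNTTC were in 7.41% of the members and 7.96% of all genes, and TTCNNGAA in 7.41% and 8.47%. The 9 subunits with CCGGAAG had a median log2 ratio of 0.22 in granule-like neurons and the 16 without it 0.33. The 4 with TGACNNNGC had a median of 0.30 and the 21 without it 0.26. These are matches of letters, and no binding was measured.

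Short genes stood higher in AAV-TAU as a whole, and none of the members is a long one of over 100 kb. In granule-like neurons, the median log2 ratio of all measured genes was 0.22 for spans under 5 kb, that of genes of 5 to 20 kb was 0.11, of 20 to 100 kb 0.05 and of those over 100 kb -0.03. The members in the same bands had medians of 0.43 (4 genes), 0.32 (18 genes) and 0.20 (11 genes). In the shortest band 4 of 4 members were higher past the fold, against 31.2% of all measured genes there. In the next band 9 of 18 were, against 7.23%, and in the third 1 of 11, against 0.906%. Spearman's rho between log2 ratio and span was -0.66 over the 33 members and -0.48 over 9118 measured genes, a description over genes that share both libraries. Psmb5 spans 3.90 kb and Psmd8 6.51 kb, while Psmd14 spans 88.7 kb and Psma3 21.7 kb. Psma6, at 34.2 kb, stood above its band. The part that gene span, or what goes with it, has in the members' ratios was not tested.

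**Figure D2:**
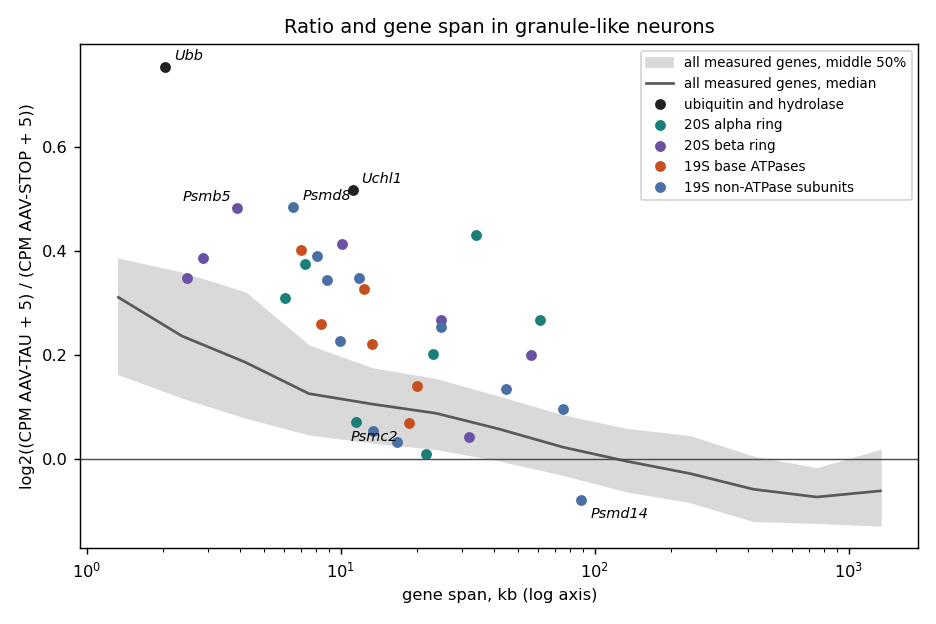
Log2 ratio of AAV-TAU to AAV-STOP in granule-like neurons against gene span in kb (log axis): coloured points are the 33 members, the line is the median of all measured genes by bin and the band their middle 50%. The line falls with span, and 32 of the 33 members lie above 0.

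The summed subunits were higher in AAV-TAU in every main class. They came to 1821 CPM in AAV-TAU and 1568 CPM in AAV-STOP in granule-like neurons, a log2 ratio of counts of 0.22 (0.20 to 0.23). In CA1-like neurons they summed to 1698 and 1512 CPM, a log2 ratio of 0.17 (0.14 to 0.19), in CA3-like neurons to 1691 and 1508 CPM, 0.16 (0.13 to 0.20), and in inhibitory-like neurons to 1895 and 1657 CPM, 0.19 (0.16 to 0.23). Among the main classes, the log2 ratios were larger in glia. Oligodendrocyte-like nuclei had 2349 CPM in AAV-TAU and 1862 CPM in AAV-STOP, 0.34 (0.30 to 0.37), astrocyte-like nuclei 2263 and 1864 CPM, 0.28 (0.21 to 0.35), and microglia-like nuclei 2726 and 2193 CPM, 0.31 (0.20 to 0.43). The main glial classes also had fewer UMIs per nucleus, with medians of 1925 to 2558 in AAV-TAU, against 5152 to 9525 in the main neuronal ones. The difference between these neuronal and glial ratios was not tested. Smaller classes did not keep the order, with 0.45 in Cajal-Retzius-like neurons and 0.21 in newly formed oligodendrocyte-like nuclei.

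The smaller classes ran from CA2-like neurons, at 1505 CPM in AAV-TAU and 1440 CPM in AAV-STOP, to Cajal-Retzius-like neurons, at 2506 and 1837 CPM. The CA2-like log2 ratio of 0.06 had an interval of -0.03 to 0.16 that included 0, the only one of the 14 classes compared for which it did. The Cajal-Retzius-like log2 ratio was 0.45 (0.31 to 0.59). The other 5 were 0.20 in subicular or cortical excitatory-like neurons, 0.27 in immature neuron-like nuclei, 0.21 in newly formed oligodendrocyte-like nuclei, 0.35 in oligodendrocyte precursor-like nuclei and 0.30 in fibroblast-like nuclei. Over all nuclei the sum was 1887 CPM in AAV-TAU and 1594 CPM in AAV-STOP, 0.24 (0.23 to 0.25).

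**Figure D3:**
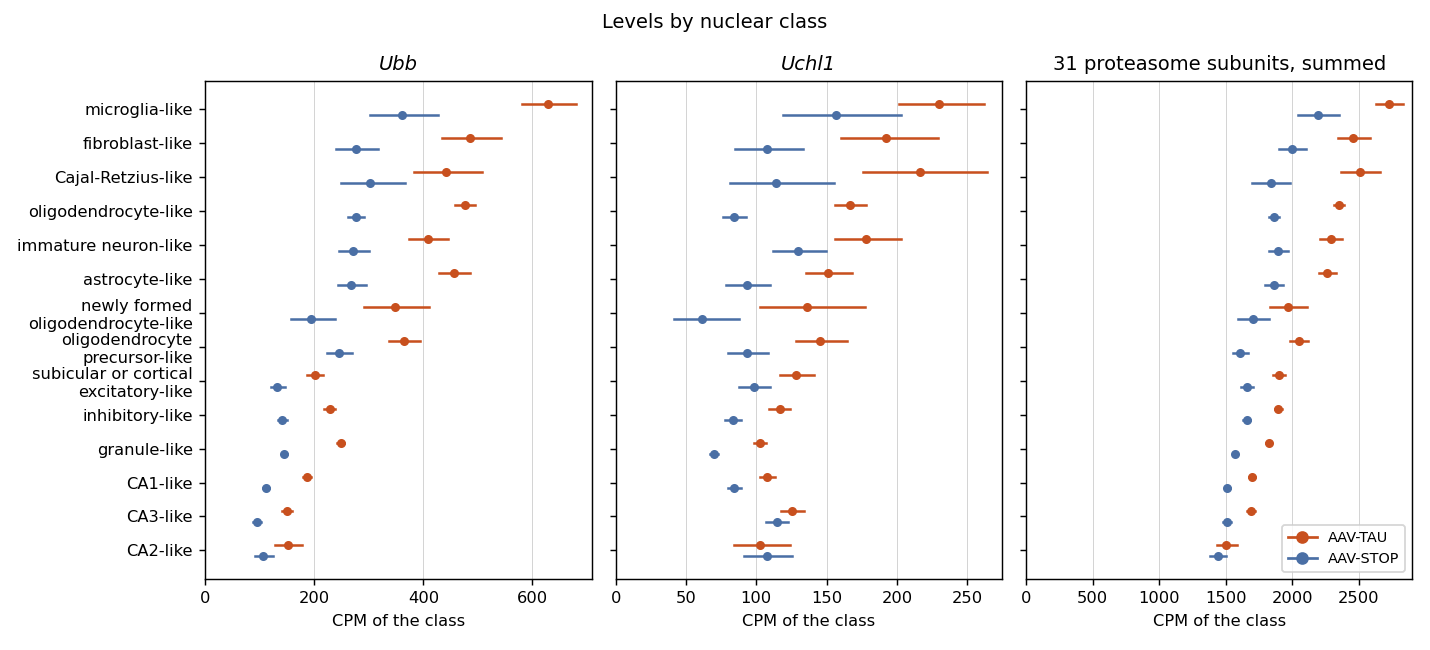
CPM of Ubb, of Uchl1 and of the 31 subunits summed in 14 classes, AAV-TAU above AAV-STOP in each row, with exact 95% Poisson intervals. Microglia-like nuclei have the highest level in all 3 panels, and for Ubb and the subunits AAV-TAU lies above AAV-STOP in every class.

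Between classes, the subunit sum was highest in microglia-like nuclei and lowest in CA2-like neurons in both libraries. In the order of the mean of both libraries, as the plot of levels by class shows it, neighbours from microglia-like down to inhibitory-like nuclei had overlapping intervals in at least 1 library, and so did CA1-like, CA3-like and CA2-like neurons. The steps from inhibitory-like to granule-like and from granule-like to CA1-like neurons did not overlap in either library. Ubb ran from 628 CPM in AAV-TAU and 360 CPM in AAV-STOP in microglia-like nuclei to 149.8 and 94.6 CPM in CA3-like neurons. Ubb was lower in the granule-like, inhibitory-like, subicular or cortical excitatory-like and CA-like neurons than in each other class, in both libraries. These neurons also held more UMIs per nucleus, with class medians from 5152 to 9525 in AAV-TAU and from 5382 to 10569 in AAV-STOP. In the other classes the medians ran from 1925 to 3622.5 and from 2211 to 3707.5. The part of UMIs per nucleus and of free RNA in the class order of Ubb and the subunits was not tested. Uchl1 was highest in microglia-like nuclei too, at 230.3 CPM in AAV-TAU and 157 CPM in AAV-STOP, and its lowest level was in granule-like neurons in AAV-TAU and in newly formed oligodendrocyte-like nuclei, at 61.4 CPM, in AAV-STOP. All neighbours in the order of its mean level had overlapping intervals in at least 1 library. Thinned to 2000 UMIs, Uchl1 was seen in 31.2% of 189 AAV-TAU and 24.1% of 141 AAV-STOP microglia-like nuclei, against 19.1% and 13.7% of granule-like neurons. Without thinning the shares were 36.1% and 29.9% in microglia-like nuclei (medians of 1925 UMIs in AAV-TAU and 2211 in AAV-STOP), against 41.1% and 32.1% in granule-like neurons (5152 and 5382 UMIs). Thinning left out 318 AAV-TAU and 16 AAV-STOP microglia-like nuclei. Microglia are not known for Uchl1. The granule-like shares lie below the microglia-like ones with thinning and above them without it. Neither the order of these classes nor expression of Uchl1 in either of them is therefore read from the shares. The part of free RNA in the levels and ratios of Uchl1 was not tested.

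Ubb was higher in AAV-TAU in all 14 classes, with each interval above 1. Its log2 ratio ran from 0.64 in CA3-like neurons to 0.80 in microglia-like nuclei among the main classes. In oligodendrocyte-like nuclei it stood at 476 CPM in AAV-TAU and 276 CPM in AAV-STOP, and in CA1-like neurons at 187 and 111 CPM. Uchl1 differed more between classes. In oligodendrocyte-like nuclei it stood at 167 CPM in AAV-TAU and 84.3 CPM in AAV-STOP, a log2 ratio of 0.94, in CA3-like neurons at 126 and 114 CPM, 0.13, and in CA2-like neurons at 103 and 107 CPM, -0.06. Uchl1 overlaps the antisense gene Uchl1os by 408 bases, and the use of strand in counting is not given in the sources used here.

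In CA1-like neurons 8 of the 33 members were higher past the fold, against 4.65% of all measured genes. Of the 33, 31 had a log2 ratio above 0, as did 68.6% of all measured genes. The median was 0.18, against 0.06 over all measured genes. With scaling by the median of ratios, which takes the median of all genes as no difference, 28 members were above 0. Psmb5 was the highest subunit, at 25.7 CPM in AAV-TAU and 18.0 CPM in AAV-STOP, a log2 ratio of 0.41. Psmd8 (23.7 and 16.6 CPM) and Psmc5 (26.1 and 18.9 CPM) were also past the fold. Psma3 was the lowest, at 112 CPM in AAV-TAU and 117 CPM in AAV-STOP, a log2 ratio of -0.07. Psma6 had a log2 ratio of 0.22, Psmc2 0.17, Psmb2 0.07 and Psmd14 -0.06, none of them past the fold.

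In CA3-like neurons 6 members were past the fold, against 6.37% of all measured genes. Above 0 were 30 members and 65.2% of all measured genes, with medians of 0.20 and 0.06. With scaling by the median of ratios, which takes the median of all genes as no difference, 27 members were above 0. Psmc3 was the highest subunit, at 58.9 CPM in AAV-TAU and 43.5 CPM in AAV-STOP, a log2 ratio of 0.40. Psmc2 was the lowest, at 27.9 and 30.99 CPM, -0.13, followed by Psmd14 at 131 and 142 CPM, -0.11, and both intervals included 1. Psma6 (0.315), Psmd8 (0.30), Psmc5 (0.29) and Psmb5 (0.22) stayed below the fold, and Psmb2 (0.07) and Psma3 (0.00) lay near 0.

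In inhibitory-like neurons 12 members were past the fold, against 5.70% of all measured genes. Above 0 were 32 members and 62.5% of all measured genes, with medians of 0.24 and 0.04. With scaling by the median of ratios, which takes the median of all genes as no difference, 27 members were above 0. Psmb6 was the highest subunit, at 21.5 CPM in AAV-TAU and 14.0 CPM in AAV-STOP, a log2 ratio of 0.48. Psmb7, its neighbour among the catalytic subunits, was the lowest, at 32.9 and 34.8 CPM, -0.07. Psmb5 (0.42), Psmd8 (0.34) and Psmc5 (0.34) were past the fold, while Psma6 (0.18), Psmc2 (0.15), Psma3 (0.07), Psmd14 (0.04) and Psmb2 (0.01) were not.

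In oligodendrocyte-like nuclei all 33 members had a log2 ratio above 0, as did 60.5% of all measured genes. Past the fold were 16, against 14.3% of all measured genes. The median was 0.31, against 0.05. With scaling by the median of ratios, which takes the median of all genes as no difference, 30 members were above 0. The 20S core held the highest subunits: Psmb6 stood at 44.4 CPM in AAV-TAU and 24.9 CPM in AAV-STOP, a log2 ratio of 0.72, and Psma6 at 56.2 and 32.4 CPM, 0.71. Psmb4 (0.67), Psmb5 (0.60), Psmc5 (0.56) and Psmd8 (0.56) were also past the fold. Psmd14 was the lowest, at 115.9 CPM in AAV-TAU and 115.8 CPM in AAV-STOP. Psmc2 (0.25), Psma3 (0.22) and Psmb2 (0.13) were not past the fold.

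In astrocyte-like nuclei 15 members were past the fold, against 14.9% of all measured genes, and 29 were above 0 (54.1% of all measured genes were), with a median of 0.32 against 0.02. Psmc3 was the highest subunit, at 107 CPM in AAV-TAU and 63.7 CPM in AAV-STOP, a log2 ratio of 0.70. Psmb5 (0.68), Psma6 (0.68), Psmc2 (0.55) and Psmd8 (0.50) were past the fold. Psmc5, among the highest in neurons, was the lowest here, at 46.1 and 47.0 CPM, -0.02, with an interval of 0.720 to 1.34 on 103 and 73 UMIs. Psmd14 (-0.02), Psmb2 (-0.01) and Psma3 (0.29) were not past the fold.

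In microglia-like nuclei (507 AAV-TAU and 157 AAV-STOP nuclei) only 18 members reached the minimum of counts. The class is a single cluster, and 3 unnamed clusters whose leading genes are also microglial, mostly of AAV-STOP nuclei, lie outside it, with 14, 17 and 4 AAV-TAU and 135, 109 and 43 AAV-STOP nuclei. The microglia-like values thus compare a different portion of such nuclei in each library. Of the 18 members, 9 were past the fold, against 16.4% of all measured genes, and 16 were above 0 (49.1% of all measured genes were), with a median of 0.31 against -0.01. Psmc1, an ATPase, was the highest, at 114 CPM in AAV-TAU and 62.3 CPM in AAV-STOP on 115 and 23 UMIs, a log2 ratio of 0.82 with a ratio interval of 1.16 to 2.99. Psmd11, a lid subunit, was the lowest, at 91.9 and 103 CPM, -0.15. Psmb2 (0.63), Psma3 (0.40) and Psmd14 (0.40) were past the fold, while Psmb5, Psmc2, Psmc5, Psma6 and Psmd8 had too few counts.

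**Figure D4:**
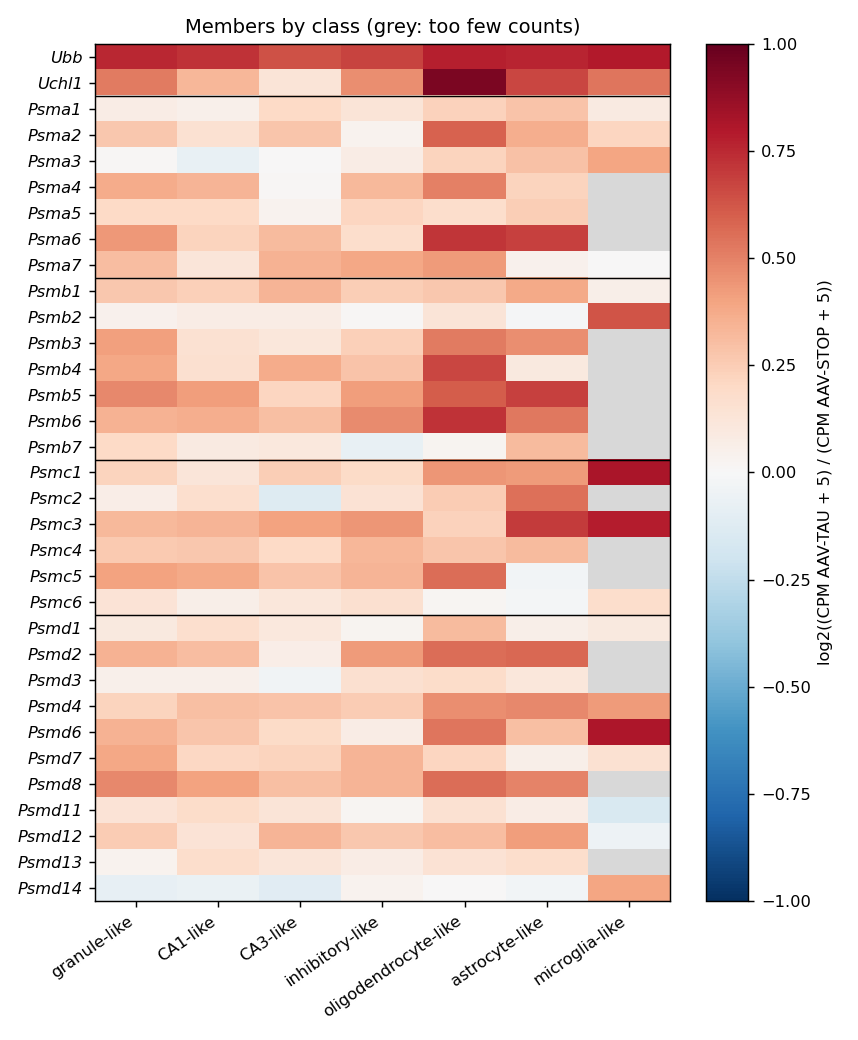
Log2 ratio of AAV-TAU to AAV-STOP for the 33 members (rows, grouped by lines into ubiquitin genes, alpha ring, beta ring, ATPases and other 19S subunits) in the 7 main classes (columns), grey where counts were too few. Ubb is the one row past the fold in all 7 classes.

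Across the 7 main classes, Ubb was past the fold in 7, Uchl1 and Psmc3 in 6, and Psmb5, Psmb6 and Psmd8 in 5 of the 6 in which they were measured. The share of all genes past it in as many classes was not counted. In single main classes, from 4.62% (granule-like) to 16.4% (microglia-like) of all measured genes were higher past it. At the other end, 8 subunits (Psma1, Psma5, Psmb7, Psmc6, Psmd1, Psmd3, Psmd11 and Psmd13) were past it in none of the 6 or 7 in which they were measured. Psmd14 was above 0 in 3 of 7 and its interval lay above 1 in none. In CA2-like neurons, Psmd14 was lower past the fold, as were 5.83% of all measured genes, at 111 CPM in AAV-TAU and 142 CPM in AAV-STOP on 114 and 210 UMIs, where 19 members were measured, 12 were above 0 (48.7% of all measured genes were) and 2 were higher past the fold against 6.94% of all measured genes. In the other smaller classes the members past the fold were 13 of 33 measured in subicular or cortical excitatory-like neurons (9.67% of all measured genes), 11 of 29 in immature neuron-like nuclei (12.4%), 17 of 31 in oligodendrocyte precursor-like nuclei (13.6%), 8 of 15 in fibroblast-like nuclei (15.9%), 5 of 6 in Cajal-Retzius-like neurons (13.2%) and 2 of 3 in newly formed oligodendrocyte-like nuclei (9.10%).

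The other lists of the pathway differed among themselves. Their counts in granule-like neurons stand beside the 70.2% of all measured genes above 0 there and the 4.62% higher past the fold. In granule-like neurons, Rps27a, which encodes ubiquitin fused to a ribosomal protein, stood at 47.1 CPM in AAV-TAU and 34.2 CPM in AAV-STOP, a log2 ratio of 0.41, and was past the fold. Ubb and Rps27a both encode ubiquitin, and how reads that match more than 1 gene were counted is not given in the sources used here. None of the 3 immunoproteasome subunits (Psmb8, Psmb9 and Psmb10) was measured in the 6 other main classes or in granule-like neurons: they held 4, 3 and 82 UMIs in AAV-TAU and 4, 3 and 81 in AAV-STOP granule-like neurons. All 4 measured assembly factors were above 0 with none past the fold, from Pomp, which matures the core (0.31), to Psmg2 (0.06). Of the activators and the inhibitor, 2 of the 3 measured were above 0, from the inhibitor Psmf1 (0.12) to the activator Psme4 (-0.10). The activators Psme1 (0.40) and Psme2 (0.01) did not reach a mean of 10 CPM. The 7 further 19S subunits and shuttle receptors were all above 0, with the shuttle receptor Rad23b the lowest (0.09), and so were the proteasome-bound deubiquitinases Uchl5 (0.23) and Usp14 (0.08).

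Enzymes that attach ubiquitin lay near the median of all genes. All 5 measured E1 genes were above 0, with a median log2 ratio of 0.13, from Uba2, which activates the related modifier SUMO (0.20), to Uba6 (0.00). Of 27 measured E2 genes, 22 were above 0 and 2 were higher past the fold, against 4.62% of all measured genes. The median of the E2 genes was 0.08, from Ube2s (0.52) to Ube2e2 (-0.19). Of 32 E3 genes, 15 were above 0, with a median of -0.01. Skp1a, a cullin adaptor, was the highest, at 72.1 CPM in AAV-TAU and 50.0 CPM in AAV-STOP, and Mid1 the lowest, at 19.8 and 29.1 CPM. The 19 other deubiquitinases had a median of 0.02, from Otub1 (0.34) to Usp48 (-0.07). Among the segregase and transcriptional control genes, Vcp, the ATPase that hands substrates to the proteasome, had the highest value (0.22) and Faf1 the lowest (-0.06), and Nfe2l1 stood at 77.5 CPM in AAV-TAU and 71.4 CPM in AAV-STOP.

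Abundant cytoplasmic transcripts and heat shock genes were also mostly higher in AAV-TAU. In granule-like neurons 8 of 8 neuronal cytoplasmic transcripts were above 0, with a median log2 ratio of 0.46, from Gapdh, at 190.4 CPM in AAV-TAU and 110 CPM in AAV-STOP, to Snap25 (0.06). In oligodendrocyte-like nuclei the same 8 had a median of 0.69, in astrocyte-like nuclei 0.59 and in microglia-like nuclei 0.60. Of 9 measured heat shock genes 8 were above 0 in granule-like neurons, with a median of 0.42, from Hsp90aa1 (0.64) to Hspa5 (-0.06). Markers of oligodendrocytes in granule-like neurons summed to 696 CPM in AAV-TAU and 601 CPM in AAV-STOP, with 8 of 8 higher and none at 0 (12.8 to 330.3 CPM each in AAV-TAU and 7.75 to 310.0 CPM in AAV-STOP). Markers of astrocytes there summed to 1198 and 1218 CPM (3 of 8 higher), of microglia to 126 and 125 CPM (6 of 10 higher) and of inhibitory neurons to 136 and 119 CPM (6 of 6 higher). In microglia-like nuclei granule markers summed to 281 CPM in AAV-TAU and 265 CPM in AAV-STOP (4 of 7 higher). Markers of oligodendrocytes summed there to 1898 and 1594 CPM (7 of 8 higher), and of astrocytes to 410 and 609 CPM (1 of 8 higher). Those of inhibitory neurons summed there to 202 and 219 CPM (2 of 6 higher). The part of free RNA in the members' ratios was not tested.

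The mitochondrial share of nuclei also differed between the libraries. Of granule-like neurons, 29.7% in AAV-TAU and 15.7% in AAV-STOP had a mitochondrial share of 0.4% or more. Within bands of this share, the subunit log2 ratio in granule-like neurons was 0.20 below 0.1%, 0.20 from 0.1 to 0.2%, 0.22 from 0.2 to 0.4% and 0.13 (0.10 to 0.17) at 0.4% or more. The Ubb log2 ratio of counts in the same bands was 0.94, 0.85, 0.75 and 0.39. In CA1-like neurons the subunit ratio was 0.17, 0.16, 0.11 and 0.01, the last with an interval of -0.05 to 0.07, and that of Ubb 0.70, 0.83, 0.63 and 0.16, the last with an interval of -0.02 to 0.34. There Ubb stood at 234 CPM in AAV-TAU and 209 CPM in AAV-STOP, against 156 and 96.0 CPM in the lowest band. The Uchl1 log2 ratio was 0.69, 0.54, 0.46 and 0.32 in granule-like neurons and 0.60, 0.16, 0.19 and 0.02 in CA1-like neurons. In CA1-like neurons its interval lay above 0 in the lowest band only. In granule-like and CA1-like neurons the differences were smallest in the nuclei with the most mitochondrial RNA, but the subunits of other classes did not share this order. In the same bands the subunit log2 ratio was 0.20, 0.14, 0.16 and 0.20 in inhibitory-like neurons and 0.20, 0.39, 0.24 and 0.35 in oligodendrocyte-like nuclei, and that of Ubb 0.94, 0.72, 0.77 and 0.28 in inhibitory-like neurons and 0.86, 0.71, 0.69 and 0.73 in oligodendrocyte-like nuclei.

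**Figure D5:**
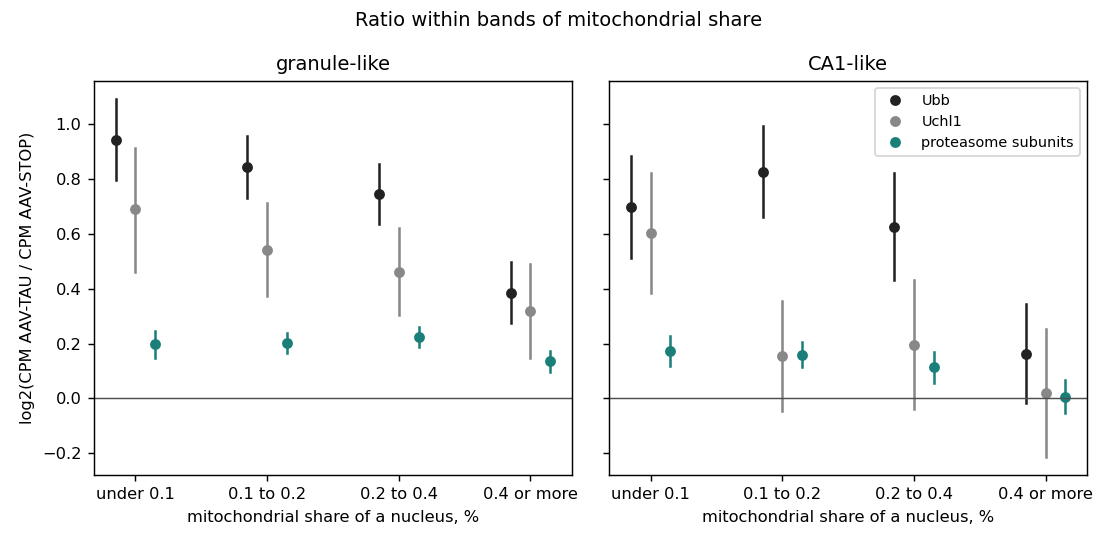
Log2 ratio of counts in AAV-TAU to AAV-STOP for Ubb, Uchl1 and the summed subunits within 4 bands of the mitochondrial share of a nucleus, in granule-like (left) and CA1-like neurons (right), with exact 95% intervals. For Ubb the points lie at 0.94, 0.85, 0.75 and 0.39 in granule-like neurons.

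The differences of the subunit sum and of Ubb were not those of a single cluster. In each of the 13 clusters of the main classes with enough nuclei, the subunit ratio and the Ubb ratio had intervals above 0 on the log2 scale, from 0.12 to 0.36 and from 0.63 to 0.83. The 9 unnamed clusters with 100 or more nuclei in both libraries gave 0.13 to 0.49 and 0.44 to 1.02. The highest subunit ratio among them was in a cluster with 558 AAV-TAU and 143 AAV-STOP nuclei, in which the subunits summed to 3824 CPM in AAV-TAU and 2730 CPM in AAV-STOP, Ubb stood at 1132 and 694 CPM and Uchl1 at 423 and 353 CPM. For Uchl1 the log2 ratio ran from 0.14 to 0.96 in the 13 named clusters, with an interval above 0 in 11. In the 9 unnamed ones it ran from 0.18 to 0.57, with an interval above 0 in 5.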

How the data were processed

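The deposited files give, per gene and filtered barcode, counts of UMIs from Cell Ranger (8.0.1 per the file headers, 4.0 per the submitters' processing notes, which also name Seurat 4.4.0) on mm10. From these counts, nuclei were kept at 500 UMIs, 300 genes and at most 5% mitochondrial UMIs, and doublets were marked per library with scrublet (expected rate 0.15): 2298 AAV-TAU barcodes (11.7%) and 2657 AAV-STOP barcodes (13.1%) were left out. The rest were scaled to 10000 counts, and 3000 variable genes, 30 components and 15 neighbours gave 46 leiden clusters at resolution 1. Of these, 30 were named as 19 classes from marker sets. Naming thresholds were set after seeing the data, and 18.2% of AAV-TAU and 18.6% of AAV-STOP nuclei stayed unnamed. Classes with 100 or more nuclei in both libraries were compared.

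Counts were summed per class and library. Ratios carry exact conditional binomial intervals and levels exact Poisson ones, at 95%. The ratio code was tested on simulated data. The members, lists and naming rule were chosen with earlier results of these data known. The text names Ubb, Uchl1, the highest and lowest member of each subunit group in granule-like neurons, the same genes in each other main class, that class's highest and lowest member, and the highest and lowest gene of each other list; a few further subunits named for their role were chosen after their values were seen. A few genes that this rule names are not reported here. All 33 members were found by gene ID in GENCODE vM21 (GRCm38), and 11 members overlap another gene of the tables, 2 on the same strand. Alternatives were another scaling, other pseudocounts (1 and 10 CPM), other filters, doublets kept, resolution 2, 2000 UMIs or more, thinning to 2000 UMIs, a mitochondrial share of 0.1 to 0.3%, and means over nuclei. Tools were scanpy 1.11.5, leidenalg 0.10.2, scipy 1.17.1 and matplotlib 3.10.9 in Python 3.11.15.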

Additional observations from a re-analysis of the deposited data

How the results depend on the processing

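No paired analysis was possible because each group holds 1 library. The summed subunit ratio stayed above 0 in all 7 main classes under each alternative run, from 0.10 to 0.37 on the log2 scale. Scaling by the median of ratios gave 0.15 for granule-like and inhibitory-like neurons, 0.10 for those like CA1 or CA3 and 0.27 for oligodendrocyte-like nuclei, because it takes the median of all genes as no difference. In CA1-like neurons it was 0.198 with doublets kept and 0.196 with thinning, and in inhibitory-like neurons 0.16 with a mitochondrial share of 0.1 to 0.3%. The count of members higher past the fold was 9, 3, 3 and 7 in granule-like, CA1-like, CA3-like and inhibitory-like neurons with scaling by the median of ratios (2.53, 2.80, 3.81 and 3.86% of all measured genes). It was 9, 3 and 3 in granule-like, CA1-like and CA3-like neurons with a pseudocount of 10 CPM (2.83, 2.80 and 3.55% of all measured genes), and 10 in CA3-like neurons with 1 CPM (9.64%). It was 7 of 22 measured in astrocyte-like nuclei with the mitochondrial band (14.9%). In microglia-like nuclei it was 18 of 33 with no filter (27.0% of all genes), with 2 members lower past the fold, 17 of 27 with doublets kept (18.7%), and 2 with 2000 UMIs or more, with thinning or with the mitochondrial band, which leave 3, 2 and 2 members measured. Of 216 values of single members in a class, 18 changed sign with scaling by the median of ratios, 26 with thinning, 24 with the mitochondrial band and at most 6 with each other alternative. The interval had excluded a ratio of 1 in 3 of these cases: Psma1 in CA3-like neurons (-0.13 thinned), and Psmc4 in oligodendrocyte-like nuclei (-0.091) and Psmb6 in astrocyte-like nuclei (-0.19) within the mitochondrial band. Values within clusters, within bands of mitochondrial share and by gene span were chosen after seeing the data. Counts of single members in microglia-like and CA2-like nuclei limit what they show, and 1 pooled library per group means that vector, animals and preparation cannot be told apart.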
